A study of Mus musculus with 16 samples.

Results

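Of the 2758 peaks that the authors called for Nan-KLF1, 1523 overlapped no KLF1 peak by even 1 bp, and 593 of those (38.9%, 95% Wilson interval 36.5% to 41.4%) had a dash in place of a central motif in the deposited list. These 593 regions, Nan-only peaks without a central motif, are described here beside the other 930 Nan-only peaks, each of which carried a central motif. Motif-free peaks made up 22.8% of the 1235 Nan-KLF1 peaks that overlapped a KLF1 peak and 21.1% of the 5326 peaks in the KLF1 list. The members were selected on these measured values, the called intervals of both lists and the motif column, so the overlap and the missing motif are descriptions and not results.

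DNA bound by either factor was sequenced after immunoprecipitation of chromatin (ChIP-seq) with an antibody to KLF1, in K1-NanER cells, which carry a Nan-KLF1-ER transgene, and in K1-ER cells, which carry KLF1-ER. Both are derived from K1, a line of mouse erythroblasts without KLF1, so neither line has KLF1 other than its fusion. ER is the oestrogen receptor part that makes the fusion respond to 4-hydroxytamoxifen, given at 200 nM for 3 h in the ChIP experiment. Each factor has 1 ChIP library, made from 3 pooled replicates with chromatin sheared to 200 to 400 bp, and 1 input library, so a peak has no replicate value. New RNA was labelled with 500 uM 4-thiouridine (4sU) for 1 h in 2 libraries each of K1-NanER and K1-ER cells, from different clones, and of parental K1 cells, all with 200 nM 4-hydroxytamoxifen per the labels. Polyadenylated, globin-depleted RNA was sequenced from 3 Nan/+ fetal livers of embryonic day 14.5, which keep 1 wild-type Klf1 allele, and from 3 wild-type livers of the same day.

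KLF1 is a zinc finger factor that switches on much of the red cell programme, the adult beta-globin gene included, and binds CACCC elements and related C-rich words in promoters and enhancers. Nan is a missense mutation in the DNA-contacting part of a KLF1 zinc finger; mice with 1 copy are anaemic, and the mutant protein prefers other bases at part of the site. The fold of a peak is the authors' own value, a ratio of ChIP over input, and it ranks peaks within this list only.

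The central motif column holds 8-base words, and these words define by their absence the regions described here. The 930 other Nan-only peaks used 18 of them, and the 5 most common are written here 5′ to 3′ in capitals, since the whole word is the motif.
Most common: CCCTGCCC
The next in order: CCCAGCCC
The third: CCCCTCCC
The fourth: CCCCGCCC
The fifth: CCACTCCC
CCCTGCCC stood at 244 of the 930 peaks (26.2%), CCCAGCCC at 205 (22.0%), CCCCTCCC at 113 (12.2%), CCCCGCCC at 108 (11.6%) and CCACTCCC at 53 (5.70%). In the KLF1 list the most common word was CCACGCCC, at 926 of 5326 peaks, against 36 of the other Nan-only peaks. All 18 words begin with CC and end with CCC and differ only at the bases between. A dash says only that the authors recorded no such word near the centre, not that the peak lacks one.

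Peak sequences of build mm9 were not used here, so the words were sought in promoters of genes whose promoter holds a peak, from RefSeq (GRCm38.p6). The 3 promoters below belong to genes with a motif-free promoter peak of at least 126.72 fold and hold 0, 5 and 1 of the words. They cover the 250 bases before the start of the gene, 5′ to 3′ on the gene's strand, with words on either strand in capitals; overlapping words run together. Ccnc (cyclin C, a partner of the Mediator kinase CDK8) lies at chr4:21727451-21727700 on the plus strand. Dnajc21, a ribosome-assembly cochaperone, lies at chr15:10470517-10470766 on the minus strand, and Oaz2, an antizyme that controls polyamine synthesis, at chr9:65676298-65676547 on the plus strand.
Ccnc: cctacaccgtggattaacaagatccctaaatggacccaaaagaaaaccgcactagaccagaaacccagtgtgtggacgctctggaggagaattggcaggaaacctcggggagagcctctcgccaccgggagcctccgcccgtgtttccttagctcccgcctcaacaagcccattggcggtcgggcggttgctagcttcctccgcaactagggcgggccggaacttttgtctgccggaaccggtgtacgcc
Dnajc21: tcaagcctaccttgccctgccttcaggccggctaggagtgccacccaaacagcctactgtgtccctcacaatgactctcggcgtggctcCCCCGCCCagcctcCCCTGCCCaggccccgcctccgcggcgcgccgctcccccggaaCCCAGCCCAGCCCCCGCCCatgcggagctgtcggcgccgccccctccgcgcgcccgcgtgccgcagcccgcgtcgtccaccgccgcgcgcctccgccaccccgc
Oaz2: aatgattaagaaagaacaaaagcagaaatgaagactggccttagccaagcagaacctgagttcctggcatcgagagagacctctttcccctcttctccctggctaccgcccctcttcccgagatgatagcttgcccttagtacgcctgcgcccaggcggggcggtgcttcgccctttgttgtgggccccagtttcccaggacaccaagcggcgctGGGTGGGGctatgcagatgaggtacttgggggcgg
Ccnc had a peak of 185.21 fold, and Dnajc21 and Oaz2 had peaks of 126.72 fold. The promoters of Crb2 and Tmem60, also with peaks of 126.72 fold, held 0 words and are not shown. The Oaz2 word is on the minus strand.

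Across all genes with a promoter peak and a RefSeq promoter, at least 1 of the 18 words (either strand, overlaps allowed) was found in 20 of 40 promoters (50%, 35.2% to 64.8%) of the motif-free class. The other Nan-only class had words in 131 of 155 promoters (84.5%, 78.0% to 89.4%), and promoters with peaks that overlap KLF1 peaks in 383 of 463 (82.7%). All 32851 RefSeq promoters held a word in 47.0%. Since these words split the classes, the gap between them is partly set by the choice of members and is a description. The share at motif-free promoters was near that of all promoters, although their median GC content, 59.6%, was above the 52.4% of all promoters and close to the 62.0% of the other Nan-only class. Only 28 of the 40 genes with motif-free promoter peaks matched a RefSeq promoter, some with several starts, and promoter coordinates were not joined to the mm9 peaks. In the other Nan-only class, the 155 promoters came from 112 genes. Starts of 1 gene were counted as separate promoters, so the intervals may be too narrow.

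Motif-free Nan-only peaks lay away from genes more often than the other Nan-only peaks. Of the 593, 117 were intergenic (19.7%, 16.7% to 23.1%), against 34 of 930 (3.66%, 2.63% to 5.07%), a difference of 16.1 percentage points (95% Newcombe interval 12.8 to 19.6). A further 210 were distal (35.4%), against 242 (26.0%), a difference of 9.39 points (4.65 to 14.2). Introns held 200 (33.7%) against 429 (46.1%), a difference of -12.4 points (-17.3 to -7.37). Promoters held 44 (7.42%, 5.57% to 9.81%) against 149 (16.0%, 13.8% to 18.5%), a difference of -8.60 points (-11.7 to -5.34). With the authors' own intersection of the lists in place of overlap, the promoter shares were 13.9% and 23.1%. Coding sequence, untranslated regions and downstream sequence held 9, 8 and 5 of the motif-free peaks against 27, 24 and 25 of the others. The intervals cover counting error only; peaks of 1 library are not replicates and no test was made.

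Read the other way, 117 of the 151 intergenic Nan-only peaks had no motif (77.5%, 70.2% to 83.4%), against 46.5% of the distal, 31.8% of the intronic and 22.8% of the promoter peaks. The promoter share of peaks that overlap KLF1 peaks was 38.8%, above that of both Nan-only classes. The list names no gene, with a limit of 300 kb in its header, for 118 motif-free peaks (19.9%), against 41 (4.41%) of the others, a difference of 15.5 points (12.1 to 19.1). A missing name does not place a peak outside genes, since some of these peaks are listed as intronic or coding.

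**Figure D1:**
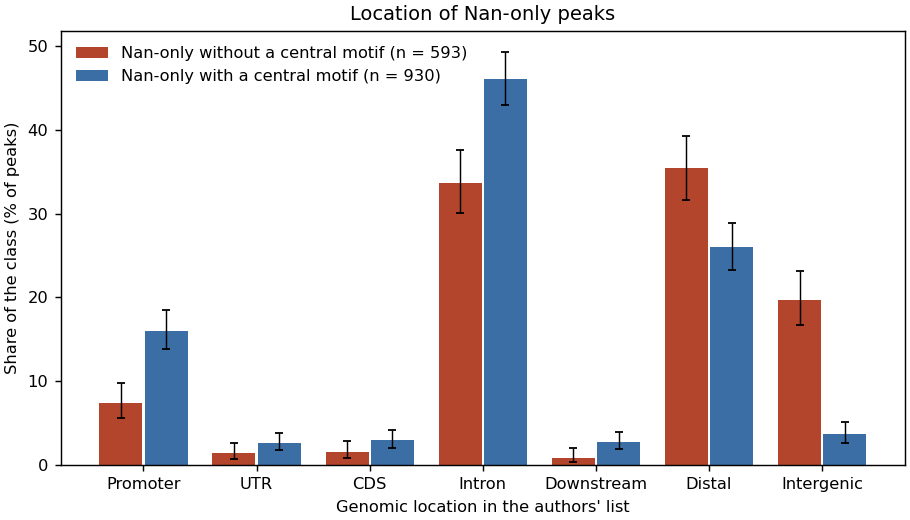
Bars give the share of each class of Nan-only peaks (y axis, percent of the class) at each genomic location in the authors' list (x axis), for 593 peaks without and 930 with a central motif; error bars are 95% Wilson intervals of counting error. Intergenic peaks were 19.7% of the class without a motif and 3.66% of the class with one.

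Their chromosomes varied too. The motif-free share of Nan-only peaks ran from 25.3% on chromosome 7 to 57.8% on chromosome 12, and was 51.0% on chromosome X, where 26 motif-free peaks faced 25 others. Unplaced sequence held 10 motif-free peaks (1.69%) and 0 of the 930 others, where a count of 0 allows a share of up to 0.323% (3 counts of the total).

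Motif-free peaks were also farther from KLF1 binding. Their median gap to the nearest KLF1 peak was 122675 bp (95% order-statistic interval 94601 to 162352), against 40453 bp (33566 to 46134) for the other Nan-only peaks. A KLF1 peak lay within 10 kb of 79 motif-free peaks (13.3%) and of 199 others (21.4%), and within 100 kb of 279 (47.0%) and 665 (71.5%), a difference of -24.5 points at the wider limit (-29.3 to -19.4). For 86 motif-free peaks and 29 others no KLF1 peak lay within 1000 kb. The 86 include the 10 peaks on unplaced sequence, where a gap (2396643 bp or more) is not a known genomic distance. These 10 also enter the median and the shares above. Without unplaced sequence and the peaks of Rn4.5s and G530011O06Rik, the medians were 115301.5 bp and 40478 bp.

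**Figure D2:**
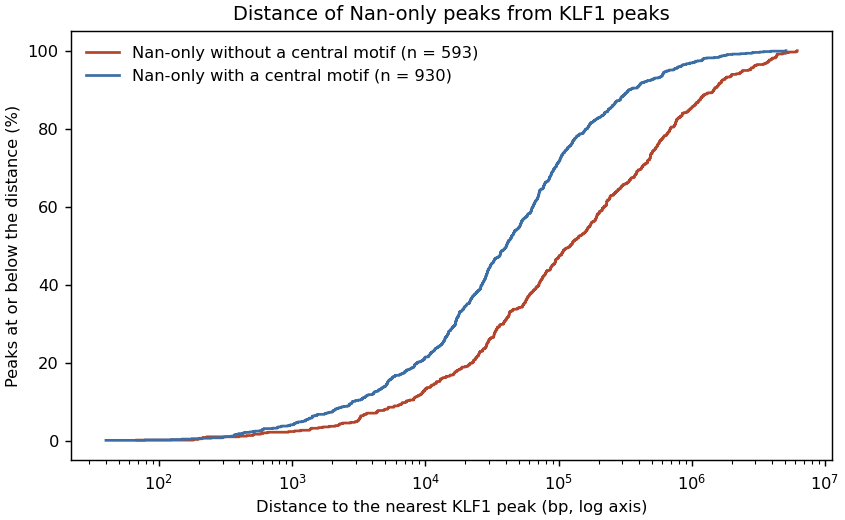
Curves give the percent of each class of Nan-only peaks (y axis) at or below a distance in bp to the nearest KLF1 peak (x axis, log scale). The motif-free curve lies to the right of the other, with a median of 122675 bp without and 40453 bp with a central motif. It includes 10 peaks on unplaced sequence, whose gaps are not known genomic distances.

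The members nearest to the overlap limit were an intronic peak named to Mllt10, a chromatin reader, 68 bp from a KLF1 peak, and peaks at Sema4b (182 bp), Ezr (197 bp), Tkt (210 bp), Pitpnm2 (214 bp) and Fut11 (228 bp). On the other side of the limit, the motif-free peaks with the shortest overlap were at Gm10818, of which a KLF1 peak covered 44 bases, and at Atp9a (196 bases), Gtf3c5 (202 bases) and Pbrm1 (203 bases). The 6 peaks inside had folds of 54.87 to 118.88 and the 4 outside 77.98 to 165.71, ranges that overlap. The motif criterion is a yes or no, so it has no members near a limit.

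The fold over input was lower and more spread at motif-free peaks. The median was 87.73 (quartiles 58.49 and 116.97, range 30.06 to 848.06), against 107.23 (quartiles 85.47 and 136.47, range 30.48 to 545.88) for the other Nan-only peaks and 126.72 for peaks that overlap KLF1 peaks. A fold under 50 was held by 103 motif-free peaks (17.4%) and 40 others (4.30%), whereas a fold of 250 or more was held by 22 (3.71%) and 38 (4.09%). Of all Nan-only peaks between 30 and 50 fold 72.0% were motif-free (103 of 143), against 52.2% from 50 to 75, 34.6% from 75 to 100, 31.7% from 100 to 150, 26.3% from 150 to 250 and 36.7% (22 of 60) from 250 up. The fold comes from the same ChIP contrast as the peaks themselves, so these values describe the class and are not tested.

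**Figure D3:**
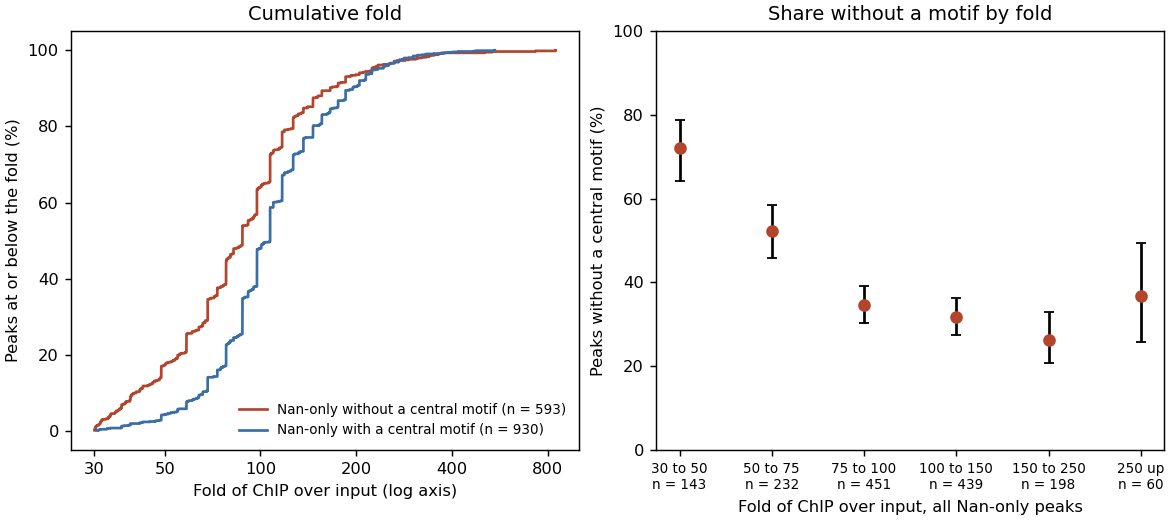
Left, the percent of peaks of each class (y axis) at or below a fold of ChIP over input (x axis, log scale); right, the percent of Nan-only peaks without a central motif (y axis) in 6 ranges of fold (x axis), with 95% Wilson intervals of counting error. The motif-free share is 72.0% between 30 and 50 fold and 26.3% between 150 and 250.

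Location and fold went together among the members. Motif-free promoter peaks had a median fold of 112.6 (42.68 to 263.19, 44 peaks) and intronic ones 87.76, while distal ones had 82.3 and intergenic ones 68.23 (30.06 to 263.19, 117 peaks). In the other Nan-only class the medians were 97.48 at promoters, 102.4 in introns, and 107.23 at both distal and intergenic sites. At promoters the motif-free median was thus above that of the other class, with overlapping order-statistic intervals (97.48 to 126.72 against 97.48 to 107.23). The motif-free promoter peaks include several at the repeated gene Rn4.5s (106.54 to 134.99 fold), whose height is uncertain. The promoter median was not computed without them. At intergenic sites it was below, with intervals that did not overlap (58.49 to 77.98 against 87.73 to 116.97).

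Motif-free peaks were slightly wider, with a median of 509 bp (493 to 527, range 188 to 3000), against 453 bp (440 to 467, range 221 to 1567). Widths over 1000 bp were found in 30 motif-free peaks (5.06%) and 15 others (1.61%). The summit lay at the middle of the peak in both classes, at a median of 50.2% and 50% of the width.

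The highest fold, 848.06, was at an intronic peak with no gene named (mm9 chr6:97360099-97360909). It was followed by a distal peak of 731.58 at Cbfa2t3, a corepressor of the ETO family in erythroid GATA1 complexes (chr8:125250021-125250457, 5221 bp from a KLF1 peak). An intronic peak of 536.13 was named to Alkbh5, an RNA demethylase, and a distal peak of 506.89 to Phospho1, a phosphatase of bone mineralisation. The other 6 of the highest 10 were Ovol1 (370.42), Trhde (365.79), Nsmf (360.67), Mir103-2 (350.92), Syne1 (341.17) and D17Wsu104e (338.35). Among these 10 peaks 6 were intronic, 3 distal and 1 coding, and none was in a promoter. The highest of the other Nan-only peaks were at Cdh15 (545.88) and Gpt (477.64).

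At the lower end stood an intergenic peak on chromosome 12 with 30.06 fold, distal peaks at Ces5a (30.09) and A2m (30.18), and intergenic peaks on chromosome 1 (30.22) and at Spin4 on the X (30.23). All 5 lay between 242516 and 786196 bp from a KLF1 peak, and each had a fold found once in the list. No peak of the whole list lay under 30.06, so weaker regions are not analysed here.

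Many fold values repeat. A fold shared to the last digit with at least 1 other peak of the list was held by 464 motif-free peaks (78.2%, 74.7% to 81.4%) and by 841 others (90.4%, 88.4% to 92.2%), a difference of -12.2 points (-16.1 to -8.43). The repeated values are mostly whole multiples of 1 step, 9.7478. Some lie off it, such as 73.16 (36 peaks of the whole list), 91.45 (32 peaks) and 109.74 (25 peaks). A fold off the step can therefore still be a repeated one, and other steps were not sought. Within 0.01, 337 motif-free peaks (56.8%) lay on a multiple, against 654 others (70.3%), a difference of -13.5 points (-18.4 to -8.54), and 74.6% of the peaks that overlap KLF1 peaks. The values most common among motif-free peaks were 107.23 (43 peaks, 11 steps), 97.48 (39 peaks, 10 steps), 77.98 (35 peaks, 8 steps) and 68.23 (33 peaks, 7 steps).

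As background, MACS divides the tag height at a summit by the largest of a genome-wide and several local expected counts. The part of either in the repeated values was not tested. Motif-free peaks on the step had a median fold of 97.48 and those off it 71.5, against 107.23 and 89.22 in the other class. On the step lay 44.4% of the intergenic motif-free peaks (35.8% to 53.5%), 58.1% of the distal, 63.0% of the intronic and 54.5% of the promoter ones, against 67.6%, 68.2%, 69.0% and 77.2% of the other class. The list is in falling order of fold and restarts 3 times near its end. After the first restart stood 47 motif-free peaks (7.93%), 13 others (1.4%) and 6 that overlap KLF1 peaks.

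**Figure D4:**
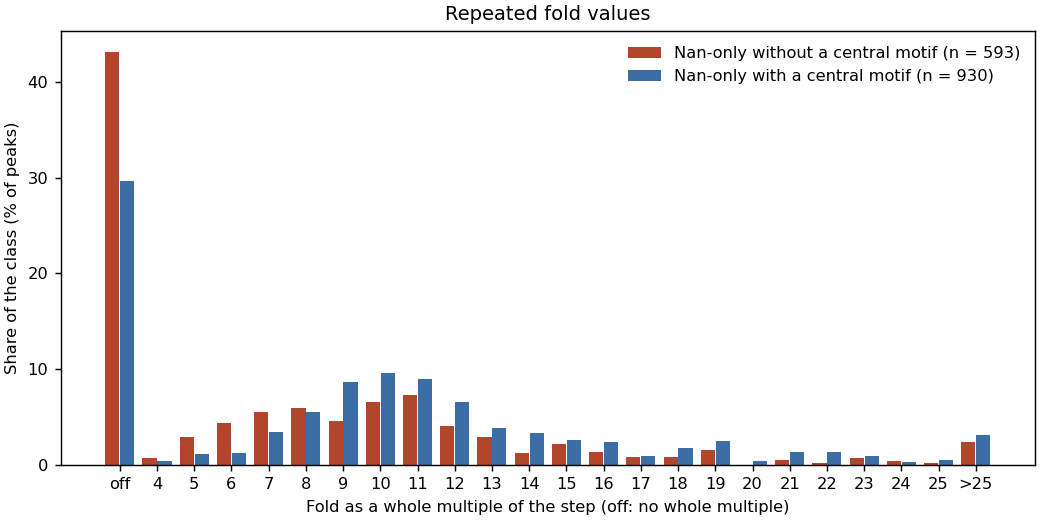
Bars give the share of each class of Nan-only peaks (y axis, percent of the class) whose fold is off the step, or is a given whole multiple of it (x axis). Off the step lie the folds of 43.2% of the peaks without and 29.7% of those with a central motif. Some of these folds repeat too.

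The few coding members gathered at Klf1 and Esr1, the genes behind the parts of the fusion protein. Of 9 motif-free peaks in coding sequence, 6 lay in Klf1 or in Esr1, the gene of the oestrogen receptor. Klf1 held peaks of 311.93 fold (chr8:87426389-87427532) and 77.98 fold (chr8:87428546-87428955), the nearest KLF1 peak being 32657 bp away. The locus that the authors' deposited table gives for Esr1 (chr10:5342779-5734495) held 4 members, all coding, of 341.17, 185.21, 107.23 and 79.3 fold. The peak list names the first 2 of these to Syne1, the neighbouring gene, and the other 2 to no gene. Klf1 also held 1 other Nan-only peak, coding as well, of 107.23 fold with the word CCCCTCCC. The KLF1 list had 0 peaks named to Klf1 and 0 in the Esr1 locus, although K1-ER cells carry a KLF1-ER fusion.

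In the authors' deposited table, new RNA of Esr1 stood at 70.3 FPKM in K1-NanER cells and at 135.5 FPKM in K1-ER cells, against 2.41 FPKM in K1 cells, log2 fold changes of 4.87 and 5.81 (q = 0.00213 in both). Reads from a fusion and from the gene itself cannot be told apart in these files. These loci were chosen after their values were seen. The coding members elsewhere were 3, at Il12rb1 (146.22), Rxrb (107.23) and Apeh (73.16), which is 0.511% of the 587 members without those 6.

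Other members came in clusters. Rn4.5s, a small RNA gene present in many copies, had 7 members in 100518 bp (chr6:47613128-47713646), of 99.47 to 151.67 fold and 700 to 1823 bp, none of them on the step. Of the 18 Nan-KLF1 peaks named to it 17 had no motif and 10 overlapped a KLF1 peak, and 9 of the 10 KLF1 peaks there had none either. G530011O06Rik had 4 members in 8213 bp (chrX:166438818-166447031), of 101.9 to 199.28 fold, none on the step and each 679914 bp or more from a KLF1 peak. The 10 members on unplaced sequence had 34.87 to 68.23 fold, with 1 on the step. Copies of near-identical sequence can share reads, so the height and the place of these 21 peaks are uncertain, and the reads' part in them was not tested.

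Irf2bpl had 3 members (81.31, 97.48 and 185.21 fold) and Gse1 had 3 (68.23, 263.19 and 268.73 fold). Among the members lay peaks of other classes, which were 5 Nan-KLF1 peaks that overlap KLF1 peaks at Rn4.5s, 3 such peaks at Irf2bpl and 2 other Nan-only peaks at Gse1, against none at G530011O06Rik. In all, 15 genes had 2 or more members, 11 of them exactly 2, among them Ccnc, Pag1, Phospho1, Cit and Jph4. A second peak of the same class lay within 10 kb of 31 motif-free peaks (5.23%), 62 others (6.67%) and 196 (15.9%) of those that overlap KLF1 peaks.

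The 475 motif-free peaks with a gene named 451 different genes, against 822 genes at the other Nan-only peaks. Protein-coding genes were 396 of the 450 that matched RefSeq (88.0%), against 777 of 820 (94.8%), with 35 long noncoding RNAs, 8 transcribed pseudogenes and 7 microRNAs among the rest, against 33, 4 and 5. The microRNAs were Mir103-2, Mir687, Mir30a, Mir1907, Mir3087, Mir5135 and Mir152. A KLF1 peak was named to 128 of the 451 genes (28.4%, 24.4% to 32.7%), against 273 of 822 (33.2%, 30.1% to 36.5%), a difference of -4.83 points whose interval (-9.98 to 0.515) holds 0. For 294 genes the motif-free peaks were their only peaks in either list.

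Member genes were sought in 12 lists of 194 genes. The lists cover the erythroid programme, but also the cell cycle, apoptosis, histones, Krüppel-like and Sp factors and markers of other cell types. Of these, 9 (4.64%) had a motif-free Nan-only peak and 17 (8.76%) had one of the others, against 1.81% and 3.55% of the 21900 protein-coding RefSeq genes, and these shares were not tested. Among 22 erythroid transcription and signalling genes these were Zfpm1, the GATA1 cofactor FOG1 (intronic, 73.25 fold), and Pim1, a kinase of cytokine signalling (intergenic, 109.74 fold), while 15 had a KLF1 peak. Red cell membrane genes gave 1 of 31, Cd24a (distal, 228.62 fold), and heme and iron genes 1 of 24, Slc11a2, the iron transporter DMT1 (intronic, 93.79 fold). The cell cycle list gave Rb1 (distal, 113.69 fold), 1 of 24. None of 8 globin and chaperone genes, 18 apoptosis and p53 genes or 15 histone genes of the lists had one. The lists do not hold every gene of their kind. Outside them, the histone genes Hist1h4f (55.66 fold) and Hist1h2ad (53.11 fold) had motif-free promoter peaks. The BCL2-family genes Bik (intronic, 82.3 fold) and Bok (distal, 75.03 fold) also had motif-free peaks. Krüppel-like and Sp factors gave 3 of 20, which were Klf1, Klf10 and Klf13, and the neuronal markers gave Nrxn3, 1 of 8. Klf1 enters these counts through its coding peaks described above, where reads of the fusion and of the gene cannot be told apart. Of the lymphoid, megakaryocyte and muscle markers, 8 each, 0 had one. The expression tables hold only called genes, so the labelled cell type was not checked against its markers. These lists were chosen with results of the data known.

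The change of new RNA in genes named at motif-free peaks was read from the authors' deposited table, which lists only genes called (q at most 0.05) in K1-NanER or in K1-ER cells, each set against the same K1 libraries. Of the 451 genes, 60 were in it (13.3%, 10.5% to 16.8%), against 133 of 822 (16.2%, 13.8% to 18.9%), a difference of -2.88 points with an interval that holds 0 (-6.77 to 1.30). Counted per peak, those without a gene included, the shares were 63 of 593 (10.6%, 8.39% to 13.4%) and 157 of 930 (16.9%, 14.6% to 19.4%), and these intervals do not overlap. Peaks without a gene, more common among the motif-free ones, cannot match the table. With only peaks that have a named gene, a choice not planned in advance, the shares were 13.3% and 17.7%. In K1-NanER 46 of the 60 were called (76.7%), near the 75.7% of the whole table, and 99 of the 133 (74.4%). Of the 46, 38 rose and 8 fell, 82.6% rising (69.3% to 90.9%), against 77 and 22 (77.8% rising) in the other class. Among 281 listed genes at peaks that overlap KLF1 peaks, 180 were called, of which 154 rose and 26 fell (85.6% rising). Over all genes listed, 47.4% were called and higher and 28.3% called and lower, which is 62.6% rising of those called.

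In K1-ER the authors' deposited table called 32 of the 60 genes (53.3%), against 49.4% of the whole table. It called 85 of the 133 genes of the other Nan-only class (63.9%). At peaks that overlap KLF1 peaks it called 204 of 281 (72.6%). Of the 32 genes called at motif-free peaks, 28 were higher and 4 lower (87.5% rising). Over all genes listed, 37.9% were called and higher in K1-ER and 11.5% called and lower, which is 76.7% rising of those called. Of the 32 genes, 18 were also called in K1-NanER. The comparisons share the K1 libraries, so their calls are not independent. A KLF1 peak was named to 26 of the 46 genes called in K1-NanER. For 18 of the 46, motif-free peaks were the only peaks in either list. Of these 18 genes 12 rose, beside 62.6% rising of all listed genes called in K1-NanER. The summit lay within the locus of 22 of the 46 and within 50 kb of 41. A nearest gene need not be the gene a peak acts on.

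By the authors' deposited table, the steepest rise was that of Klf10, a TGF-beta-induced Krüppel-like repressor, with 346.7 FPKM in K1-NanER and 399.2 in K1-ER cells, against 3.39 in K1 cells (log2 fold changes of 6.67 and 6.88, q = 0.00213 in both). Its motif-free peak was intergenic, of 36.58 fold and 91018 bp from the gene, and 7 KLF1 peaks bore the same name. Both lines were thus far above K1, and K1-ER was the higher.

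Pag1, a membrane adaptor that recruits the kinase Csk, had 3.50 FPKM in K1-NanER and 0.260 in K1-ER cells, against the table's floor of 0.1 in K1 cells; the authors' deposited table called it in K1-NanER (q = 0.00213) and not in K1-ER (q = 1). It had 2 members, the higher of 204.7 fold, and no other peak in either list. The AP-1 subunit Jun had 1.88 FPKM in K1-NanER and 0.306 in K1-ER cells against 0.1 in K1 cells, with a distal member of 82.3 fold 29667 bp from its locus and no other peak. Chrnb1, an acetylcholine receptor subunit, had 1.57 and 0.859 FPKM against 0.1, with an intronic member of 87.73 fold and no other peak, and was likewise called in K1-NanER alone in the authors' deposited table. K1-NanER was not set against K1-ER by the authors, so a difference between them was not tested. A gene at the floor has no reliable fold.

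Cercam had 14.9 FPKM in K1-NanER and 34.3 in K1-ER cells against 1.26 in K1 cells, and was called in both lines in the authors' deposited table. In the same authors' deposited table Glipr2 had 26.7 and 47.3 FPKM against 2.41, and Micall1, an endosome-recycling protein, 17.4 and 8.95 against 2.07. Of these 3, Micall1 alone was higher in K1-NanER than in K1-ER. Each of the 3 had a KLF1 peak named to it. Over the 38 rising genes the median log2 change was 1.61, and over all rising genes of the authors' deposited table it was 1.63.

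Apart from Klf10, 4 genes of the lists were in the authors' deposited table. Cd24a, a surface glycoprotein of red cell precursors, had 260.6 FPKM in K1-NanER and 195.0 in K1-ER cells against 51.3 in K1 cells, and rose in both lines in the authors' deposited table (log2 fold changes of 2.35 and 1.93, q = 0.00213 in both). Rb1, the retinoblastoma cell cycle brake, had 12.1 FPKM in K1-NanER and 6.56 in K1-ER cells against 4.21 in K1 cells, called in the authors' deposited table in K1-NanER (q = 0.00804) and not in K1-ER (q = 0.416). Klf13 and Pim1 were called in K1-ER and not in K1-NanER (q = 0.273 and 0.609 there) in the authors' deposited table. Klf13 had 88.1 FPKM in K1-NanER and 171.8 in K1-ER cells against 55.1 in K1 cells, and Pim1 had 214.6 and 554.7 against 165.5. Each of these 4 also had a KLF1 peak named to it.

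The authors' deposited table put the histone gene Hist1h4f first among those that fell, with 156.2 FPKM in K1-NanER and 242.3 in K1-ER cells, against 625.5 in K1 cells (log2 fold changes of -2.00, q = 0.00213, and -1.37, q = 0.00931), with a promoter member of 55.66 fold. Rpph1, the RNA of RNase P, had a promoter member of 126.72 fold, and 1000.03 FPKM in K1-NanER and 2150 in K1-ER cells, against 3027 in K1 cells; it was called in K1-NanER (-1.60, q = 0.00213) and not in K1-ER (q = 0.455). Histone genes have near-identical copies that can share reads, so the level of Hist1h4f is uncertain. Fbxo46, an F-box protein, had 10.4 FPKM in K1-NanER and 17.1 in K1-ER cells against 33.9 in K1 cells. Nsmf had 7.76 and 9.84 FPKM against 22.2. Its member of 360.67 fold, among the highest, is listed as intronic, but the summit lay 7057 bp outside the Nsmf locus of the authors' deposited table. None of these 4 genes had a KLF1 peak.

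The other genes that fell were Rdh13, Cog2, Tkt and Phf15, for which the authors' deposited table gives log2 fold changes of -0.98 to -0.93 in K1-NanER and q of 0.0411 to 0.0498. Tkt, the transketolase of the pentose phosphate pathway, had 41.2 FPKM in K1-NanER and 47.5 in K1-ER cells against 79.7 in K1 cells, with its promoter member 210 bp from a KLF1 peak. In K1-ER cells the authors' deposited table called none of these 4 (q from 0.0847 to 0.408).

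**Figure D5:**
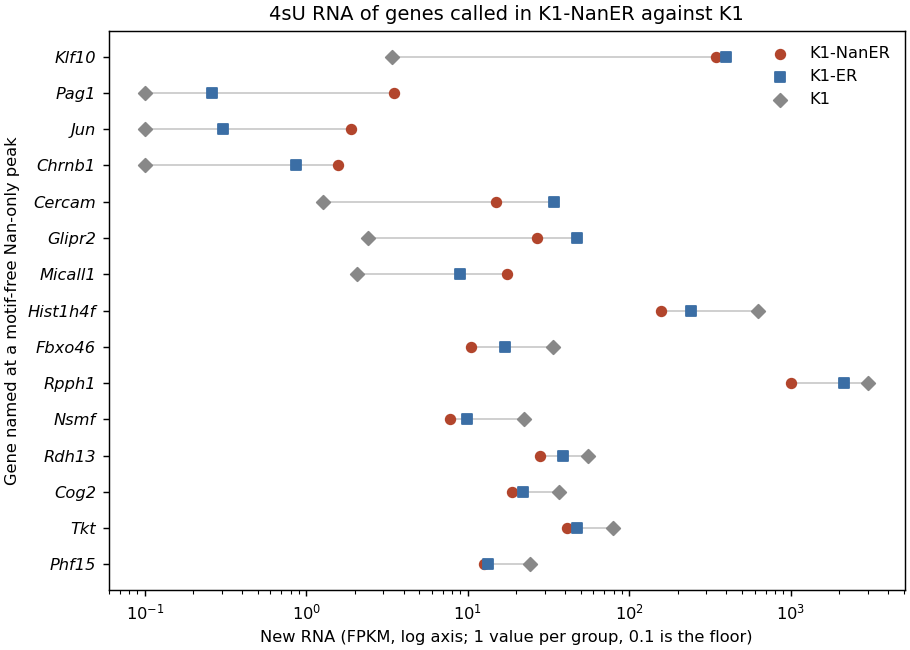
New RNA (x axis, FPKM in 4sU-labelled RNA, log scale, 1 value per group from the authors' table) of 15 genes named at motif-free Nan-only peaks (y axis), 7 of the 8 largest rises above the 8 largest falls in K1-NanER against K1, with K1-NanER as circles, K1-ER as squares and K1 as diamonds. Klf10 stands at 346.7, 399.2 and 3.39 FPKM, and 3 of the genes shown have K1 at the floor of 0.1 FPKM.

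In fetal liver, 20 of the 451 genes were in the authors' deposited table of Nan/+ against wild type (4.43%, 2.89% to 6.75%), against 54 of 822 (6.57%, 5.07% to 8.47%), a difference of -2.13 points with an interval that holds 0 (-4.59 to 0.624). That table lists only called genes (100%), of which 75.4% were higher and 24.6% lower. Of the 20, 15 were higher in Nan/+ and 5 lower (75% higher, 53.1% to 88.8%), against 46 and 8. The share that rose was thus near that of the whole table. Counted per peak, 20 of 593 (3.37%, 2.19% to 5.15%) had a gene in it, against 56 of 930 (6.02%, 4.67% to 7.74%).

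Bbs2, a ciliary BBSome subunit, had, by the authors' deposited table, 25.25 FPKM in Nan/+ and 2.21 in wild-type livers (log2 fold change 3.52, q = 0.00244), with a distal member of 150.08 fold. Oaf had 77.9 FPKM in Nan/+ and 21.2 in wild-type livers (1.88), and the copper chaperone gene Atox1, with a promoter member of 64.01 fold, had 415.0 and 135.4 (1.62) in the authors' deposited table. Lower genes included the calpain inhibitor Cast, with 13.0 FPKM in Nan/+ and 32.9 in wild-type livers (-1.34), and the autophagy protease Atg4a, with 9.22 and 22.4 (-1.28), in the authors' deposited table. Bbs2, Oaf, Atox1 and Cast each had a KLF1 peak named to them as well. Atg4a had none, but had a Nan-only peak with a central motif. In whole liver, fewer cells of a type and less RNA per cell cannot be told apart.

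The liver table and the K1-NanER comparison both called 2 of these genes, and each of the 2 also had a KLF1 peak named to it. Cbfa2t3 was higher in both authors' deposited tables, with 5.72 FPKM in K1-NanER and 9.42 in K1-ER cells against 1.86 in K1 cells (log2 fold changes of 1.62 and 2.34), and with 7.78 FPKM in Nan/+ and 3.50 in wild-type livers (1.15, q = 0.00611). Cercam went opposite ways in the authors' deposited tables, higher in K1-NanER than in K1 cells (3.57) and lower in Nan/+ than in wild-type livers, with 9.24 and 20.3 FPKM (-1.14, q = 0.0104).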

How the data were processed

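ChIP-seq peak lists (1 per factor) and 2 expression tables were used as deposited. Per the submitters' processing notes, reads were handled with TopHat2 2.0.10 and MACS 1.4.2 on build mm9; the programs that gave FPKM, q values, nearest genes and central motifs have no name given in the sources used here. The fold is a ratio of ChIP to input that the authors deposited with each peak. FPKM is the authors' value, 1 per group, and the log2 fold change, p-value and q-value are those of the authors' deposited comparisons. No counts were given, so depth is unknown.

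Peaks that overlap by at least 1 bp were taken as shared. From the lists, shares with 95% Wilson intervals, differences with Newcombe intervals, medians with order-statistic intervals and gaps between peaks were computed (Python 3.11.15, pandas 2.3.3, numpy 2.4.6, scipy 1.17.1, matplotlib 3.10.9), after the functions were tested on simulated data. No p-value was computed, because peaks of 1 library are not replicates and the tables hold only called genes. Calls use q at most 0.05.

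Peaks named in the text are the 10 of highest and 5 of lowest fold and the 6 nearest to a KLF1 peak; genes are those with most members, the 8 largest rises and 8 largest falls in K1-NanER (the higher group at 1 FPKM or more), those called in both tables, and members of the gene lists. Of the largest rises, 1 gene is not reported here. Other named peaks and genes were chosen after their values were seen. The members and lists were chosen with earlier results of these data known.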

Additional observations from a re-analysis of the deposited data

How the results depend on the processing

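Changing a choice left the motif-free class on the same side of the other Nan-only peaks in 42 of 42 alternatives over 11 results, and 38 of 46 values stayed within the counting interval of the reported one or, for the number of members (534 to 714), within 1.5 times of it. The others moved. With the authors' own intersection in place of overlap, chosen after seeing the data (714 members), promoters held 13.9% of the class against 23.1% of the other Nan-only peaks. Without peaks of repeated fold, which left 129 members, 24.0% were intronic against 49.4%, 39.5% distal against 31.5% and 26.4% intergenic against 4.49%, with a median fold of 52.81 against 86.69. With peaks of at least 40 fold, 16.3% were intergenic against 3.40%. Repeated folds were held by 69.1% against 84.0% where at least 5 peaks had to share the value, and by 84.0% against 92.3% with folds rounded to 1 decimal. The cause of these shifts was not tested. Leaving out unplaced sequence and the peaks of Rn4.5s and G530011O06Rik, also chosen after seeing the data, kept every value it was run on within its interval.

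No paired analysis was possible because each factor has 1 ChIP library and the expression tables hold 1 value per group. For the same reason no replicate was left out. Depth is unknown, the Nan-KLF1 list starts at 30.06 fold, and regions or genes under the authors' thresholds are not analysed here.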
